A study of Mus musculus with 8 samples.

Results

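The genes described here are the MLL family of histone H3 lysine 4 (H3K4) methyltransferases (Kmt2a, Kmt2b, Kmt2c, Kmt2d, Kmt2e, Setd1a and Setd1b), the histone H3 lysine 27 (H3K27) demethylases Kdm6a and Kdm6b, and Men1, the gene of menin. They are 10 of the 141239 features counted, matched by GENCODE symbol and Ensembl identifier, and all 10 passed the filter on low counts, which left 26717 features. RNA was sequenced from hearts of mice of mixed strain at 2 weeks of age, all labelled Lmna-/-, meaning that Lmna, which encodes the A-type lamins of the nuclear envelope, is knocked out. Of the 8 libraries, 3 come from hearts labelled Lmna-/- with no vector named (replicates 6, 7 and 8, called untreated) and 5 from hearts labelled Lmna-/-:AAV9 Lmna WT (replicates 1 to 5, called AAV9-LMNA), given wild-type Lmna with adeno-associated virus serotype 9, a vector that reaches heart muscle. The labels name neither the vector's promoter and dose nor the sex of the mice, nor whether each library is 1 animal. Wild-type hearts and a control vector were not analysed here, so Lmna and AAV9 cannot be told apart as the agent of a difference.

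H3K4 methylation marks active promoters and enhancers, and H3K27 trimethylation, set by Polycomb complexes, marks silent ones. The H3K4 methyltransferases work inside COMPASS-type complexes. SETD1A and SETD1B lay down most promoter trimethylation, MLL1 and MLL2 (Kmt2a and Kmt2b) act on chosen promoters such as the Hox genes, with menin as a subunit, and MLL3 and MLL4 (Kmt2c and Kmt2d) methylate enhancers. UTX (Kdm6a), a subunit of the MLL3 and MLL4 complexes, and its relative JMJD3 (Kdm6b) can remove H3K27 methylation. KMT2D and KDM6A are the genes mutated in Kabuki syndrome, in which heart defects are common, and mouse Kmt2d is needed for heart development.

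The group was proposed with the contrast of both groups of libraries in view, so its fold changes are given as a description with no p-value, and nothing is supported with them. Levels are CPM, read counts scaled to library size with TMM normalisation (trimmed mean of M-values) over all features, and fold changes are edgeR log2 values of AAV9-LMNA over untreated with their standard error (SE). A gene is called when its Benjamini-Hochberg adjusted p over all 26717 features is under 0.05.

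In hearts given AAV9-LMNA, 8 of the 10 genes were called lower, 1 (Men1) was called higher and 1 (Kdm6a) was not called. For comparison, 15% of all features tested and 6.07% of coding genes were called lower, and 10.6% and 18.4% called higher. In the same 8 genes each untreated library lay above each AAV9-LMNA library, in Men1 the order was the reverse, and Kdm6a overlapped. Groups were apart with untreated higher in 16% of all features and 6.61% of coding genes, and with AAV9-LMNA higher in 13.8% and 23.1%. The median log2 fold change was -0.78 over the 10 genes, against -0.032 over all features and 0.21 over coding genes. In bulk RNA, fewer cells of a type and less RNA per cell cannot be told apart.

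**Figure D1:**
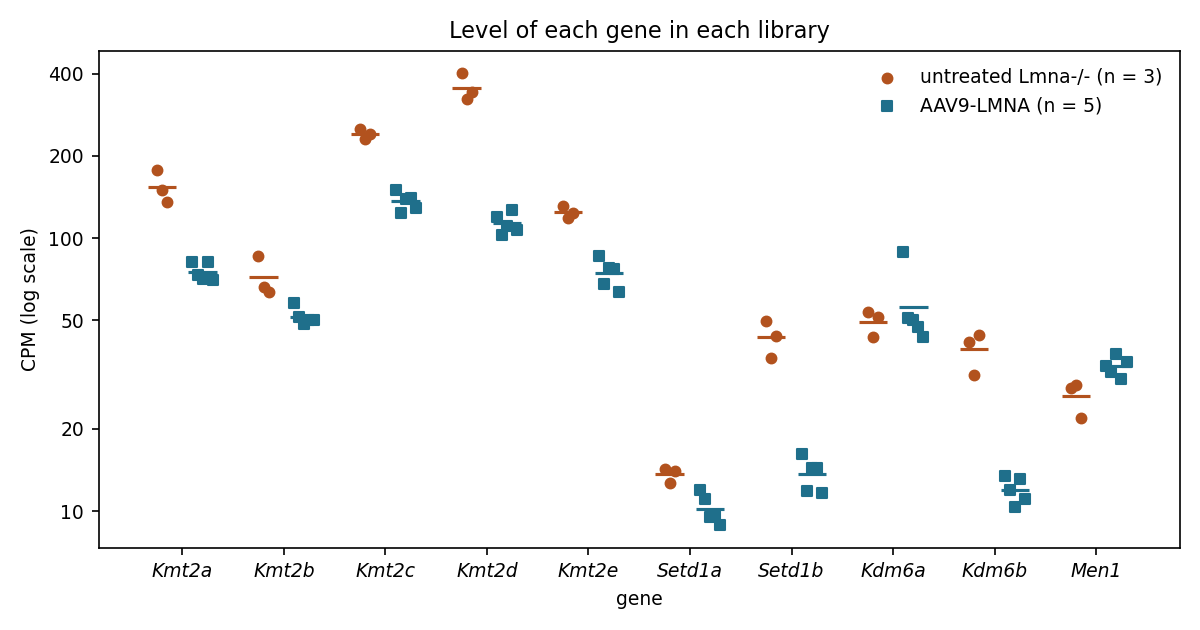
CPM (log axis) of the 10 genes in each library, with circles for the 3 untreated and squares for the 5 AAV9-LMNA libraries and a bar at each group mean. Setd1b, Kdm6b and Kmt2d show the widest gaps, and AAV9-LMNA replicate 1 stands above the other libraries for Kdm6a at 89.0 CPM.

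Counts on features ran from 21439956 to 26492443 per library, and the 10 genes held 196 to 9780 reads each per library. Lmna lay between 32.3 and 68.7 CPM in the untreated and between 227 and 747 CPM in the AAV9-LMNA libraries, a log2 fold change of 3.03 with SE 0.46 in the direction of the labels (edgeR adjusted p = 0.00486). The untreated libraries stood apart from the others in where reads fell: 16.8 to 24.7% of reads lay outside every feature, against 12.1 to 12.8% in the AAV9-LMNA libraries. Their levels also rose with transcript length relative to the mean of all libraries, by 0.0766 to 0.171 log2 units per doubling of length, and fell by 0.0608 to 0.102 per doubling in the AAV9-LMNA libraries. Untreated replicate 6 had the highest value of both measures. Among the untreated libraries it was also the highest of the 3 for 8 of the 10 genes, and replicate 7 was the lowest for 7. Within the AAV9-LMNA group, replicate 1 was the highest of the 5 libraries for 8 of the 10 genes and the lowest for 0. Replicate 5 was the lowest for 5.

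Promoter sequence is shown for 3 genes that differ in their response: Kmt2d and Kmt2a, which were lower with AAV9-LMNA, and Kdm6a, which was not called. The 250 bases before the RefSeq start (build GRCm38.p6) are given 5′ to 3′ on the gene's strand, with CG dinucleotides in capitals, since MLL1, MLL2 and the SETD1 subunit CXXC1 bind unmethylated CG through CXXC domains. The windows are chr15:98871206-98871455 (minus strand) for Kmt2d, chr9:44881290-44881539 (minus strand) for Kmt2a and chrX:18162325-18162574 (plus strand) for Kdm6a.
Kmt2d: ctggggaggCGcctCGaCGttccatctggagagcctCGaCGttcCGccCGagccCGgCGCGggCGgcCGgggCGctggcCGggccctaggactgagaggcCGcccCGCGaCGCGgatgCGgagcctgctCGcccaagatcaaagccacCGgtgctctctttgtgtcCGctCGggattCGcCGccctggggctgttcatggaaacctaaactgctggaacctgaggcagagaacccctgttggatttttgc
Kmt2a: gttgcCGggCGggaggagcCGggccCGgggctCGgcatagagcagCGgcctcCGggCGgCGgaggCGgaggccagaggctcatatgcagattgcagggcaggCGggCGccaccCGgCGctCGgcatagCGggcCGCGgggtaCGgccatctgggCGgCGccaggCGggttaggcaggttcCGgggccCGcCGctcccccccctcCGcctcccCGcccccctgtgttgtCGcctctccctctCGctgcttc
Kdm6a: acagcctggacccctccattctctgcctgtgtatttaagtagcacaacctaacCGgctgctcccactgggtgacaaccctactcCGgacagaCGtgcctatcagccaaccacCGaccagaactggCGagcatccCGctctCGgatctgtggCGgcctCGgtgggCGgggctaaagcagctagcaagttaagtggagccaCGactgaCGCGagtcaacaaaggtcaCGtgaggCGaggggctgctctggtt
The Kmt2d window holds 26 CG dinucleotides, the Kmt2a window 29 and the Kdm6a window 15. Over 32851 promoter windows of this length the median was 6, and 9.59%, 6.78% and 27.3% of them hold at least as many as these windows do. A GC box (GGGCGG on either strand) occurs 4 times each in the Kmt2d and Kmt2a windows and 1 time in that of Kdm6a, and 32.7% of all windows hold at least 1. On either strand, the 3 windows hold no CCAAT box by its letters CCAAT, which 33.8% of all windows hold. They also hold no ETS motif spelled CCGGAAG (6.91% of all windows), no cAMP response element spelled TGACGTCA (1.55%) and no TATA box spelled TATAAA (12.4%). Of the other members, the Kmt2c window holds 48 CG dinucleotides and 12 GC boxes, the most of the 6 members with an entry. The Setd1a window holds 25 CG dinucleotides and no GC box, and the Men1 windows, from 3 listed starts, hold 8 to 10 and 1 GC box each.

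Of the enhancer methyltransferases, Kmt2d (ENSMUSG00000048154, GRCm38 chromosome 15, 98831669 to 98871204, minus strand), the gene of MLL4, held 401, 324 and 342 CPM in untreated replicates 6, 7 and 8. In AAV9-LMNA replicates 1 to 5 it held 119, 102, 111, 127 and 107 CPM. The lowest untreated library was thus above the highest AAV9-LMNA library by a wide margin. The means were 356 ± 40.3 (SD, n = 3) and 113 ± 9.66 CPM (SD, n = 5), a log2 fold change of -1.65 (SE 0.10), or 3.14-fold.

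Its relative Kmt2c (ENSMUSG00000038056, chromosome 5, 25271798 to 25498783, minus strand), the gene of MLL3, held 251, 230.0 and 240.4 CPM in the untreated libraries and 150.2, 123, 139, 139.9 and 129 CPM in the AAV9-LMNA libraries. The groups did not overlap, and the log2 fold change was -0.82 (SE 0.09). The pair moved by different amounts. Per kilobase of exonic sequence, Kmt2d was above Kmt2c in each untreated library (ratios of 1.63, 1.43 and 1.45 in replicates 6, 7 and 8) and below it in each AAV9-LMNA library (0.807 to 0.922). Such a ratio within a library does not depend on how libraries are scaled. It can still carry a library's trends with transcript length and GC content, as can the ratios of other pairs below. The longest transcript has 19823 bases and 58.4% GC for Kmt2d, and 14967 bases and 47.6% GC for Kmt2c. With a correction for both, described below, the log2 fold changes were -1.08 for Kmt2d and -0.50 for Kmt2c.

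Kmt2a (ENSMUSG00000002028, chromosome 9, 44803355 to 44881296, minus strand), the gene of MLL1, held 177, 149.6 and 136 CPM in the untreated libraries and 81.7, 73.4, 70.5, 81.6 and 69.9 CPM in the AAV9-LMNA libraries. Its log2 fold change was -1.03 (SE 0.11), and the groups were well apart.

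Kmt2b (ENSMUSG00000006307, chromosome 7, 30568858 to 30588726, minus strand), the gene of MLL2, held 85.8, 66.2 and 63.5 CPM in the untreated libraries and 57.7, 51.3, 48.4, 49.98 and 50.2 CPM in the AAV9-LMNA libraries. Untreated replicate 6 stood above the other untreated libraries, and the gap between the groups was narrow. The log2 fold change was -0.48 (SE 0.11), and -0.35 without untreated replicates 6 and 8, where the call was lost. The ratio of Kmt2a to Kmt2b per kilobase was 1.19 to 1.30 in the untreated and 0.801 to 0.940 in the AAV9-LMNA libraries.

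Men1 (ENSMUSG00000024947, chromosome 19, 6334979 to 6340891, plus strand) encodes menin, the subunit that ties MLL1 and MLL2 to chromatin. It went the other way, with 28.3, 29.1 and 22.02 CPM in the untreated and 33.9, 32.4, 37.5, 30.5 and 35.2 CPM in the AAV9-LMNA libraries. Untreated replicate 8 was the lowest, and the highest untreated library was just under the lowest AAV9-LMNA library. The log2 fold change of 0.36 (SE 0.12) was 0.16 (SE 0.12) and not called with Ensembl features scaled alone. The call was kept in only 5 of 17 alternatives.

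The SETD1 genes differed from each other in size. Setd1b (ENSMUSG00000038384, chromosome 5, 123142193 to 123168629, plus strand) held 49.6, 36.5 and 43.8 CPM in the untreated libraries and 16.2, 11.8, 14.4, 14.4 and 11.7 CPM in the AAV9-LMNA libraries. The groups were far apart, with untreated replicate 7 the lowest of its group and AAV9-LMNA replicate 1 the highest of its own. The log2 fold change was -1.66 (SE 0.14), or 3.16-fold, close to that of Kmt2d.

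Setd1a (ENSMUSG00000042308, chromosome 7, 127776670 to 127800122, plus strand) had the lowest level of the group, with 14.3, 12.7 and 14.1 CPM in the untreated and 11.9, 11.1, 9.49, 9.70 and 8.88 CPM in the AAV9-LMNA libraries. The groups lay close together without overlap, with a log2 fold change of -0.42 (SE 0.14) that was called in 6 of 17 alternatives. Its count is uncertain. Of its exonic length, 51.8% (3523 bases) is shared with Gm49388, a coding gene annotated on the same strand that is listed at 0 reads in all 8 libraries. Of the reads, 21.03% (untreated replicate 6) to 26.37% (AAV9-LMNA replicate 1) per library were set aside as ambiguous between features. They are in no gene's count. Reads that lie in exons of both genes would be among them. Levels of Setd1a per kilobase of its full exonic length may thus be too low, and ratios to them too high. The ratio of Setd1b to Setd1a per kilobase was 1.62 to 1.95 in the untreated and 0.602 to 0.853 in the AAV9-LMNA libraries with the full exonic length. With only the 3272 bases of Setd1a not shared with Gm49388, a length chosen after the data were seen, it was 0.781 to 0.940 and 0.290 to 0.411. Which of the pair is higher in the untreated libraries thus depends on the length used. The ratio was lower with AAV9-LMNA, and the choice of length cannot alter that, since it changes the ratio by the same factor in each library.

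Kmt2e (ENSMUSG00000029004, chromosome 5, 23434441 to 23504235, plus strand) encodes MLL5, a distant relative whose PHD finger reads H3K4 methylation and whose own methyltransferase activity is in doubt. It held 131, 119 and 124 CPM in the untreated libraries and 86.0, 67.8, 77.7, 77.0 and 63.5 CPM in the AAV9-LMNA libraries. The groups were apart, with a log2 fold change of -0.74 (SE 0.11). Srpk2, a gene on the other strand, shares 972 exonic bases (9.31% of the length of Kmt2e) and had a log2 fold change of 0.20.

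The H3K27 demethylases went separate ways. Kdm6b (ENSMUSG00000018476, chromosome 11, 69398508 to 69413675, minus strand), the gene of JMJD3, held 41.5, 31.6 and 44.2 CPM in the untreated libraries. In the AAV9-LMNA libraries it held 13.4, 11.9, 10.3, 13.1 and 11.05 CPM, well under each untreated library. Its log2 fold change of -1.71 (SE 0.14), or 3.26-fold, was the largest of the 10 in size. Kdm6bos, on the other strand, shares 286 exonic bases (4.11%) and is listed at 0 reads in all 8 libraries. Of the exons of Kmt2a and Kmt2c, 2.27% and 1.35% lie in other genes likewise listed at 0.

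Kdm6a (ENSMUSG00000037369, chromosome X, 18162575 to 18279936, plus strand), the gene of UTX, held 53.8, 43.2 and 51.3 CPM in the untreated libraries and 89.0, 50.8, 50.3, 47.1 and 43.3 CPM in the AAV9-LMNA libraries. AAV9-LMNA replicate 1 stood alone at the top, and the other 4 lay within the range of the untreated libraries. The log2 fold change of 0.18 (SE 0.22) was -0.048 without that library and was called in none of 17 alternatives. The ratio of Kdm6b to Kdm6a per kilobase was 0.881 to 1.04 in the untreated and 0.182 to 0.336 in the AAV9-LMNA libraries.

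Kdm6a escapes X inactivation in mice and has a relative on the Y chromosome, Uty, so its level was set beside sex-linked genes. Uty held 49.5 to 58.6 CPM in AAV9-LMNA replicates 2 to 5, 54.2 to 74.2 CPM in the untreated libraries, and 1 read (0.0467 CPM) in AAV9-LMNA replicate 1. Together with the Y-linked genes Kdm5d, Ddx3y and Eif2s3y (the last pair chosen after their values were seen) it had 9 reads in that library and 5570 to 7698 in each of the other 7. The library with the highest Kdm6a is thus the 1 library almost without Y-linked reads. Summed over Kdm6a and Uty, it held 89.1 CPM, against 97.5 to 128 CPM in the others. Kdm5c, an X-linked H3K4 demethylase that also escapes inactivation, was highest in the same library too, at 129 CPM against 90.8 to 108 CPM. Xist is listed at 0 reads in all 8 libraries, so it gives no information on sex here. The difference between the groups in Kdm6a moves with this library, and the mean of the other 4 AAV9-LMNA libraries gave the negative value above.

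**Figure D2:**
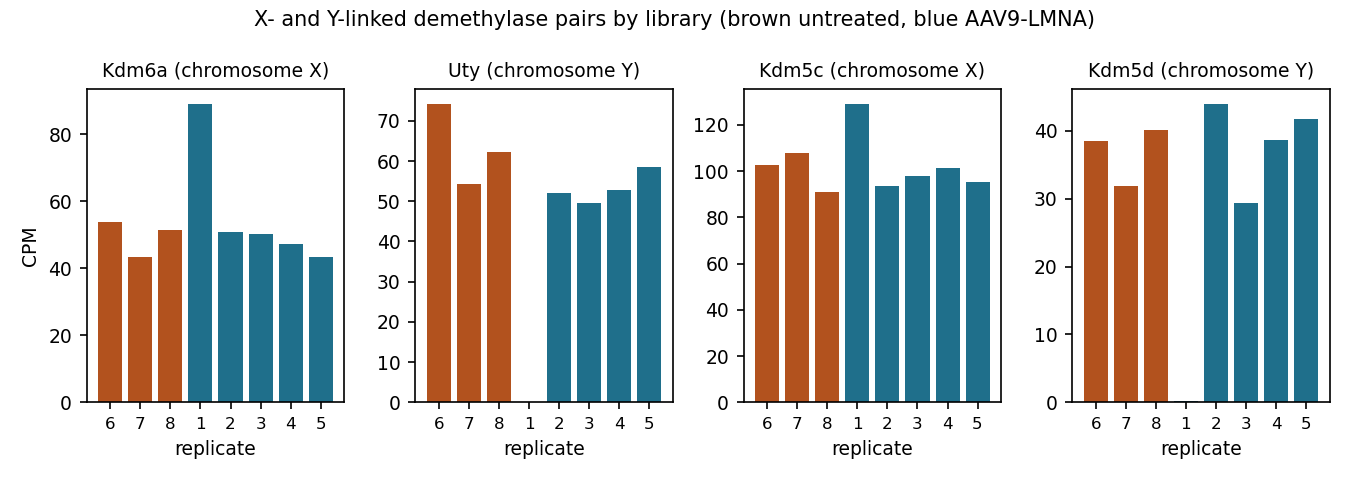
CPM of the X-linked demethylase genes Kdm6a and Kdm5c and their Y-linked relatives Uty and Kdm5d, with 1 bar per library, axes from 0 and labelled by replicate number. In AAV9-LMNA replicate 1 the Y-linked genes are near 0 and Kdm6a stands at 89.0 CPM.

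Per kilobase of exonic sequence, the order of levels changed between the groups. Ambiguous reads are in none of these levels, which may be too low where a gene overlaps another feature. In the untreated libraries Kmt2d was highest at 17.8 ± 2.02 CPM per kilobase (SD, n = 3), apart from Kmt2e (11.9) and Kmt2c (11.9), whose ranges overlapped. Then followed Kmt2a (9.25), Kmt2b (7.48), Men1 (6.90), Kdm6a (5.90) and Kdm6b (5.62), each with a range that overlapped that of the next, and, apart from these and from each other, Setd1b (3.59) and Setd1a (2.01). The place of Setd1a is uncertain, since with its unshared bases alone it would stand at 4.18 in the untreated and 3.12 in the AAV9-LMNA libraries, above Setd1b in both. In the AAV9-LMNA libraries Men1 was highest at 8.84 ± 0.696 CPM per kilobase (SD, n = 5). From Men1 down through Kmt2e (7.12), Kmt2c (6.71), Kdm6a (6.69), Kmt2d (5.68) and Kmt2b (5.37) each range overlapped the next. Kmt2a (4.52) was apart from both neighbours, and Kdm6b (1.72), Setd1a (1.502) and Setd1b (1.14) were lowest, with each range overlapping the next. Kmt2d went from rank 1 to rank 5. Rank 5 is not resolved: its AAV9-LMNA range of 5.14 to 6.36 overlapped those of Kmt2e, Kmt2c, Kdm6a and Kmt2b. The mean of Kdm6a (SD 2.22) includes replicate 1 at 10.6 CPM per kilobase. These levels were not corrected for the trends with transcript length given above, which differed between the groups.

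Long transcripts as a class were lower with AAV9-LMNA, and most of the 10 genes are long. The median log2 fold change of coding genes fell from 0.44 for transcripts of up to 1000 bases to -0.15 for those of 8000 to 12000 bases and -0.40 for the 33 genes above 16000 bases. Each gene was therefore set against coding genes whose longest transcript was within 20% of its own length. Kmt2d has a transcript of 19823 bases. Of the 29 coding genes of like length 44.8% were called lower, their median was -0.40, and none had a fold change below that of Kmt2d, before or after the correction for length and GC content of each library. For Kmt2a (16470 bases) the class held 92 genes, 40.2% called lower, with a median of -0.37, and 9 lay below Kmt2a. For Kmt2c (14967 bases) it held 145 genes, 40% called lower, with a median of -0.35, and 21 lay below Kmt2c. The count of calls among the longest members is thus to be read against a background of 40 to 44.8%.

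The shorter members had a lower background. For Setd1b (8857 bases) 19.6% of 976 genes of like length were called lower, with a median of -0.11, and 8 lay below Setd1b. For Kdm6b (6654 bases) 12.1% of 1955 genes were called lower, with a median of 0.012, and 9 lay below Kdm6b. For Kmt2e (7317 bases) 14.4% of 1591 genes were called lower, and 101 lay below it. Kmt2b and Setd1a were less far out, with 195 of 1121 genes of like length below Kmt2b and 304 of 2047 below Setd1a, where 18.3% and 11.5% were called lower. Men1, with the shortest transcript of the 10 (3002 bases), was near the median of its class, 0.36 against 0.27, where 21.8% were called higher. Kdm6a at 0.18 was near a class median of 0.059, where 9.12% were called lower and 8.71% higher.

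**Figure D3:**
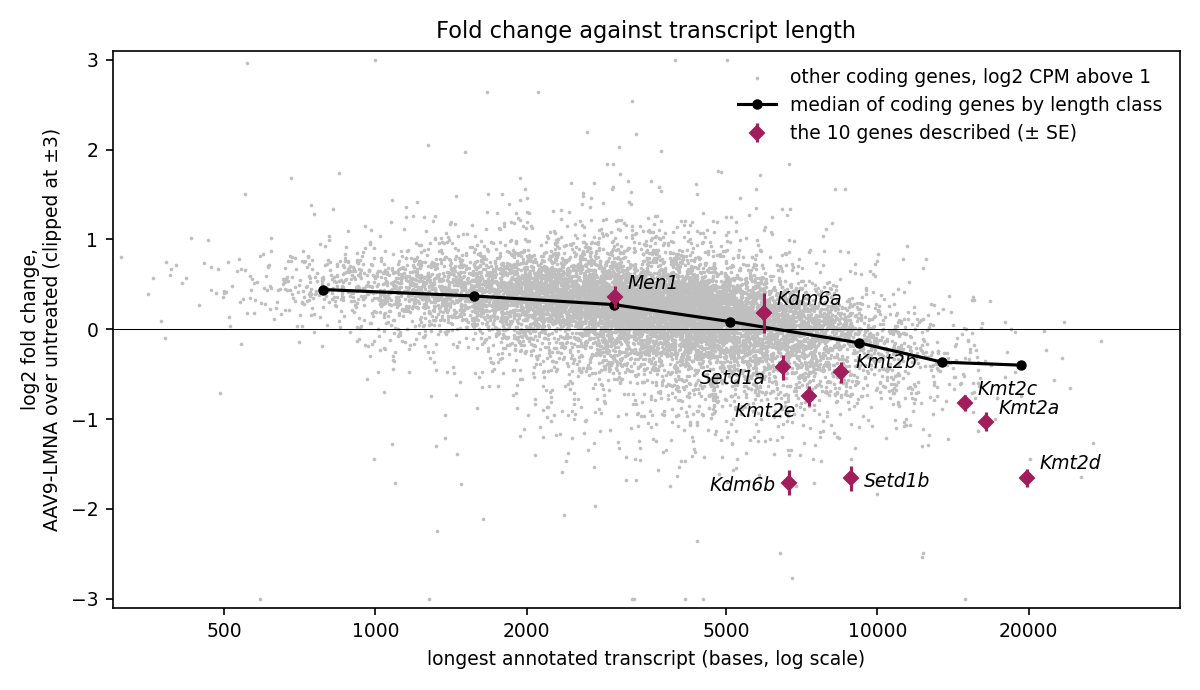
Log2 fold change (AAV9-LMNA over untreated, clipped at ±3) against the longest annotated transcript in bases (log axis), with coding genes as grey points, their median by length class as a black line, and the 10 genes as diamonds with SE bars. Kmt2d, Setd1b and Kdm6b lie far below the line, Kmt2b and Setd1a closer to it, and Men1 and Kdm6a near it.

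When each library was corrected for transcript length and GC content, 6 of the 10 genes were called lower and none higher, where 4.66% of all Ensembl features and 4.51% of coding genes were called lower, and 2.36% and 2.46% higher. Among coding genes of like length to these 6, the share called lower was 6.9% (Kmt2d) to 10.3% (Kmt2c). Of these, 9 of 92 lay below Kmt2a, 25 of 145 below Kmt2c and 103 of 1591 below Kmt2e. For Setd1b it was 8 of 976, for Kdm6b 8 of 1955 and for Kmt2d none of 29. Kdm6b (-1.59, SE 0.16), Setd1b (-1.43, SE 0.18), Kmt2d (-1.08, SE 0.13), Kmt2e (-0.73, SE 0.13), Kmt2a (-0.64, SE 0.15) and Kmt2c (-0.50, SE 0.11) kept their calls. Kmt2b (-0.27), Setd1a (-0.35) and Men1 (0.12) lost theirs. The corrected value of Kmt2b was -0.038 without untreated replicate 6, and its call was also lost with 1 surrogate variable (-0.31). Without AAV9-LMNA replicate 2, 3, 4 or 5, or without untreated replicates 6 and 8, only 4 genes were called in the corrected fit. Kmt2d, Setd1b and Kdm6b were among the 4 each time, beside Kmt2e in the former and Kmt2a in the latter. Set against the uncorrected fit on the same Ensembl features, Kmt2d went from -1.86 to -1.08, Kmt2a from -1.24 to -0.64 and Kmt2c from -1.02 to -0.50. The corresponding steps were from -1.91 to -1.59 for Kdm6b and from -0.95 to -0.73 for Kmt2e. With Ensembl features scaled alone and no correction, the median feature shifted by -0.19, all 8 lower genes stayed called (-0.62 to -1.91), and Kdm6a turned to -0.022. There 8.57% of all Ensembl features and 8.73% of coding genes were called lower, and 4.33% and 4.49% higher. Without untreated replicates 6 and 8, which stood farthest from the AAV9-LMNA libraries in reads outside features and length trend, Kmt2a, Kmt2c, Kmt2d, Kmt2e, Setd1b and Kdm6b stayed called in the fit over all features, with the lone untreated library assumed to vary like the rest. The part that RNA quality had in these values was not tested.

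**Figure D4:**
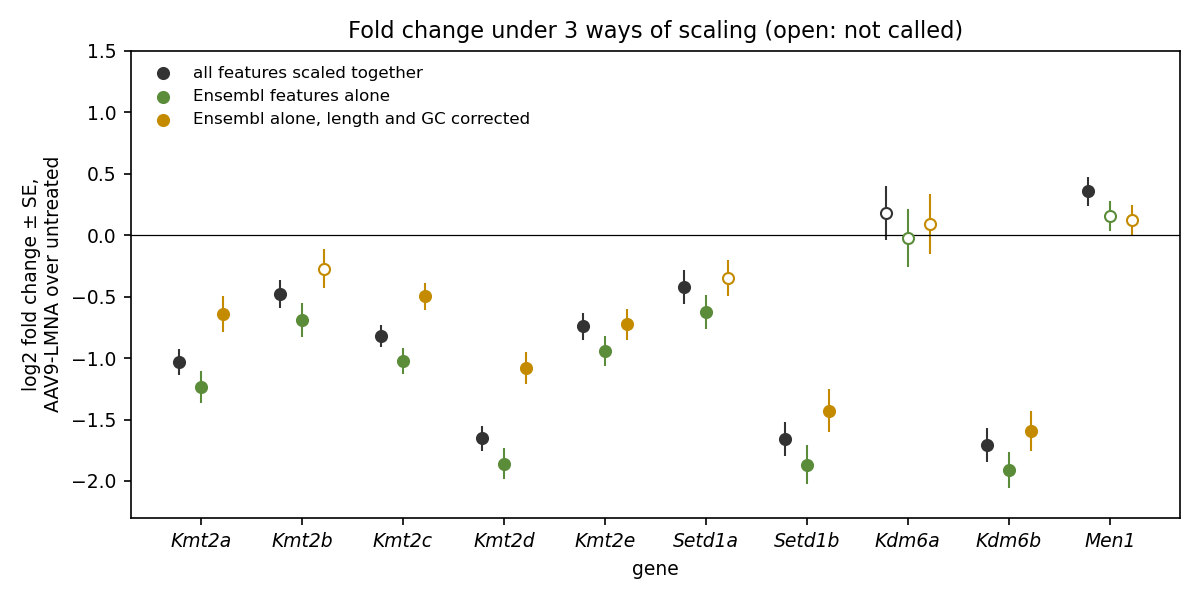
Log2 fold change with SE of the 10 genes from the fit on all features, the fit on Ensembl features alone and the fit on Ensembl features corrected for length and GC content; filled points were called and open points were not. Setd1b, Kdm6b and Kmt2d stay below -1.0 in all 3, and Men1 is filled only in the first.

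Genes that work with or against these enzymes were taken from lists made by function, and 35 of 41 passed the filter. Of these, 7 rose, 2 fell and 26 were not called (edgeR quasi-likelihood, adjusted p under 0.05), with a median log2 fold change of 0.091. These shares are near those of all coding genes, of which 18.4% were called higher and 6.07% lower. None of the 7 rises stayed called with Ensembl features scaled alone or with the length and GC correction, and both settings also tested fewer features. The count of rises also moved with single libraries: 2 genes rose without AAV9-LMNA replicate 2, 3 or 4, 3 without replicate 5, and 4 without AAV9-LMNA replicate 1 or untreated replicate 6 or 8. Ncoa6, a coactivator subunit of the MLL3 and MLL4 complexes, stood with the methyltransferases: its mean was 67.7 ± 5.79 CPM in the 3 untreated and 32.3 ± 2.33 CPM in the 5 AAV9-LMNA libraries (SD). It fell by 1.07 on the log2 scale, with SE 0.10 (edgeR adjusted p = 0.000234), and by 1.02 after the length and GC correction (edgeR adjusted p = 0.00126). Other listed subunits of these complexes did not share the fall. Paxip1 overlapped between the groups and was not called (-0.10, SE 0.12, edgeR adjusted p = 0.523). Pagr1a held 0 to 2 reads per library and was not tested. Hcfc1, a subunit of the SETD1, MLL1 and MLL2 complexes, had means of 158 ± 8.98 and 114 ± 4.08 CPM. It fell by 0.47 on the log2 scale, with SE 0.08 (edgeR adjusted p = 0.00439), and its call was lost with the correction (-0.32, edgeR adjusted p = 0.0924).

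The core subunits that all COMPASS-type complexes share were not called lower. Of 3 tested, Rbbp5 (0.46, SE 0.11) and Ash2l (0.34, SE 0.10) rose and Wdr5 (0.14, SE 0.09) was not called (edgeR adjusted p = 0.0131, 0.0252 and 0.272). After the correction the values were 0.21, 0.10 and -0.13, with no call. Dpy30 held only 3 to 14 reads per library and was not tested. Ambiguous reads are not in this count, so it need not mean low expression. Of 10 subunits of particular complexes, 2 rose, namely Bod1 (0.44, SE 0.09) and Cxxc1 (0.30, SE 0.09), 2 fell and 6 were not called.

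Enzymes that add or remove the same marks gave 3 calls, all higher, in 15 genes, beside 18.4% of coding genes called higher. Of 5 other genes annotated as H3K4 methyltransferases, 1 rose: Smyd1, a heart and skeletal muscle gene needed for heart development, had means of 509 ± 8.95 CPM without and 636 ± 46.2 CPM with the vector and a log2 fold change of 0.32, SE 0.09 (edgeR adjusted p = 0.025), which was 0.074 after the correction. Of 6 H3K4 demethylase genes 1 rose, Kdm1b (0.39, SE 0.13, edgeR adjusted p = 0.0455). Of the 4 genes of the H3K27 methyltransferase complex 1 rose, Eed (0.54, SE 0.17, edgeR adjusted p = 0.0408), which held 109 to 197 reads per library. The target genes known for menin and MLL1 gave 0 calls of 6 tested. The cell cycle inhibitor gene Cdkn1b had the highest level of them and a log2 fold change of 0.42 (SE 0.15, edgeR adjusted p = 0.0559). Hoxa4, Hoxa7, Hoxa9 and Hoxa10 held at most 8 reads in any library and were not tested.

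**Figure D5:**
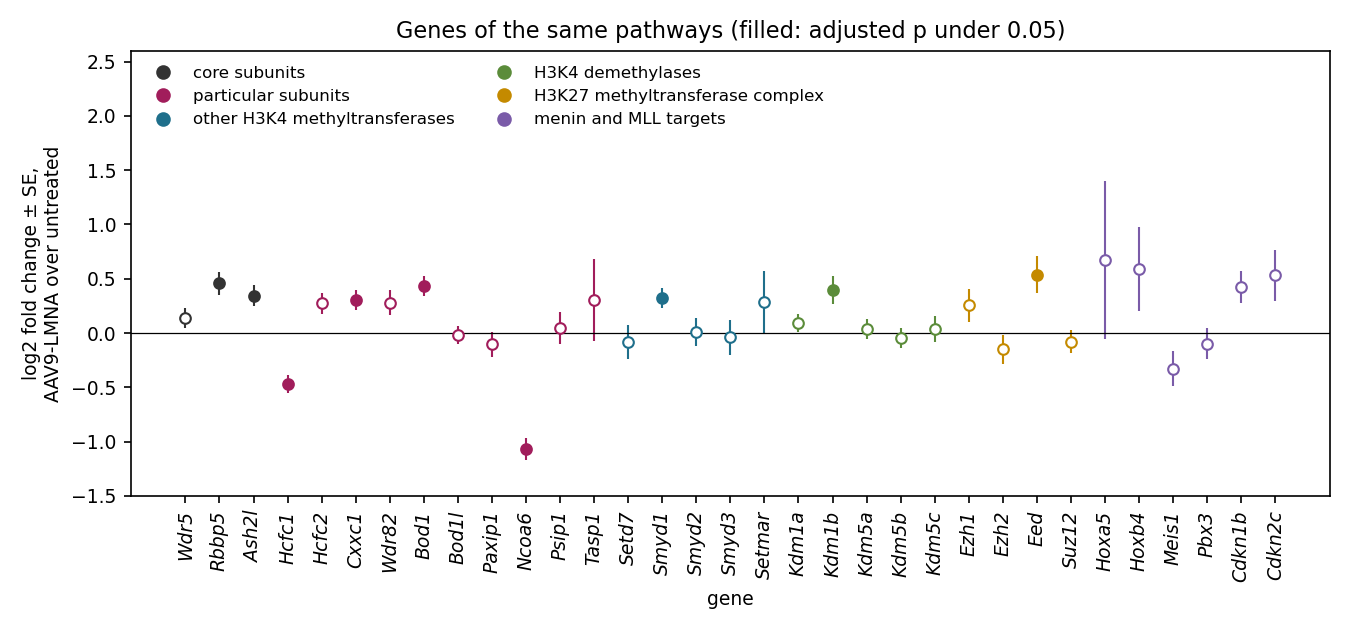
Log2 fold change with SE of 33 genes of the same pathways, grouped by list in colour, with filled points for an adjusted p under 0.05; the Y-linked Uty and Kdm5d are left out because 1 library lacks their reads. Ncoa6 at -1.07 and Hcfc1 at -0.47 are the only filled points below 0.

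The genes whose pattern was most like that of Kmt2d over the 8 libraries, among the 4631 coding genes whose log2 CPM averaged 5 or more, were Naca and Nf1 (Pearson r of log2 CPM 0.997 and 0.995). Those most like Kdm6b were R3hdm1, Arid1a and Tbx20 (0.996, 0.994 and 0.993). These values share the libraries and the contrast of both groups: 236 genes reached an r of 0.9 with Kmt2d and 227 with Kdm6b. After the length and GC correction the log2 fold changes were -2.75 for Naca, -0.51 for Nf1, -0.73 for R3hdm1, -0.98 for Arid1a and -0.53 for Tbx20.

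Markers were those of heart tissue. The 7 ventricular cardiomyocyte markers summed to 46776 to 71892 CPM in the untreated and 57504 to 69530.5 CPM in the AAV9-LMNA libraries, and overlapped between the groups. So did the summed markers of fibroblasts (899 to 2166 against 1606 to 1867 CPM), macrophages (51.2 to 167 against 144.4 to 165 CPM), endothelial cells (697 to 1167 against 1014 to 1374 CPM) and mural cells (993 to 1374 against 1223 to 1842 CPM). The 4 atrial markers were the exception, at 9.21 to 845 CPM in the untreated and 3.55 to 5.98 CPM in the AAV9-LMNA libraries, with untreated replicate 8 at the top. Without replicate 8, Kmt2d was at -1.67, Setd1b at -1.64 and Kdm6b at -1.60. The atrial sums of untreated replicates 6 and 7, 16.1 and 9.21 CPM, were still above each AAV9-LMNA library. Leaving out replicate 8 thus does not remove the atrial difference. Summed markers of lymphocytes, erythroid cells and skeletal muscle overlapped between the groups as well, and no list had a gene at 0 in all libraries. Of single markers tested, 2 of 7 ventricular, 1 of 4 endothelial and 1 of 2 lymphocyte genes were called higher and 3 of 3 atrial genes lower. Coding genes were called higher in 18.4% and lower in 6.07%. Untreated replicate 6 had the highest ventricular sum of all libraries and the lowest fibroblast, endothelial, mural and macrophage sums. The part of cell makeup in the values of the 10 genes was not tested further.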

How the data were processed

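Libraries were TruSeq preparations of heart RNA, per the labels' protocols. The authors deposited unnormalised read counts for each gene, made with HTSeq without strand over 53465 Ensembl and 87774 NONCODE genes, per the deposited files' names and identifiers. TopHat2, edgeR and limma and the builds GRCm38 and mm10 are named in the submitters' processing notes, without roles. Without strand, reads of overlapping genes cannot be told apart. Overlaps of the members were looked up among GENCODE genes alone, so overlaps with NONCODE genes are not known. The 5 summary lines were left out of library sizes and tests. Symbols, coordinates and lengths came from GENCODE M21 (GRCm38), which matched 53360 identifiers.

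Counts were filtered with filterByExpr, scaled by TMM and tested with edgeR 4.0.16 (R 4.3.3), a robust quasi-likelihood fit on the group, with Benjamini-Hochberg adjustment over all features; SE is the fold change over the root of F. Alternatives were RLE, DESeq2 1.42.0, limma-voom (3.58.1), other filters, Ensembl features alone, a loess correction (span 0.5) for length and GC content, 1 surrogate variable (sva 3.50.0) and libraries left out. The scripts were tested on simulated data. Members, lists and tests were chosen with earlier results of these data known. The named genes were the 10 members, up to 3 called genes per list and direction by smallest p or the most abundant gene of a list with none called, the 3 genes most like Kmt2d and Kdm6b each (1 of those for Kmt2d is not reported here), Lmna and Xist; others were chosen after their values were seen. P-values set the difference between the groups against the spread between libraries. That spread may in part be technical and may not be one between animals.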

Additional observations from a re-analysis of the deposited data

Results flagged for a closer look

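Of 27 genes examined in the 5 AAV9-LMNA libraries, 4 had a library far from the other 4, with a gap to its nearest neighbour above 0.710 of the group's range (Dixon's 95% limit; chance gives about 1 in 20). Kdm6a was at 89.0 CPM in replicate 1, against at most 50.8 CPM in the other 4. Uty was at 0.0467 CPM in the same replicate, and Cdkn1b at 139 CPM, the highest of the 5. Rbbp5 was lowest in replicate 4, at 22.8 CPM.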

How the results depend on the processing

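Kmt2a, Kmt2c, Kmt2d, Kmt2e, Setd1b and Kdm6b kept direction and call in all 17 alternatives first listed that could be fitted, and 6 to 8 members were called lower. With single libraries left out, 7 or 8 were called lower and 0 or 1 higher in the fit on all features. The length and GC correction gave 6 lower, and 4 to 6 with single libraries left out as well: without AAV9-LMNA replicate 2, 3, 4 or 5 (also added after the data were seen) it gave 4 (Kmt2d, Kmt2e, Setd1b and Kdm6b). That correction without untreated replicates 6 and 8, added after the data were seen, also gave 4 (Kmt2a, Kmt2d, Setd1b and Kdm6b), and 0 higher. The call of Men1 was lost, leaving 0 members higher, with limma-voom, a minimum of 1 CPM in 3 libraries, Ensembl features alone, the length and GC correction, 1 surrogate variable, and without untreated replicates 6 and 8. It was kept without untreated replicate 6 or 7 and lost without each of the other 6 libraries. Kdm6a turned to -0.022 with Ensembl features alone and ranged from -0.048 (without AAV9-LMNA replicate 1) to 0.26 with single libraries left out. With the correction it turned to -0.15 without that library and -0.041 without untreated replicate 7. Men1 turned to -0.017 with the correction without untreated replicate 8.

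Of all features, 4015 were called lower and 2843 higher. These became 1307 and 660 with Ensembl features alone, 710 and 360 with the correction, 1528 and 1493 with 1 surrogate variable, and 1004 and 1139 without untreated replicates 6 and 8. With single libraries left out they ranged from 2207 to 5260 and from 1528 to 4773. Of the partner genes, 7 rose and 2 fell: 0 rose and 2 fell with Ensembl features alone, 0 rose and 1 fell with the correction, 2 rose with 1 surrogate variable, and 1 rose and 3 fell without untreated replicates 6 and 8. With single libraries left out 2 to 9 rose and 2 or 3 fell. The cause of these shifts was not tested. The covariate on Xist could not be fitted because Xist is listed at 0. No paired analysis was possible because the replicate numbers of the groups do not overlap.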
